A study of Homo sapiens with 6 samples.

Results

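The 60 genes described here encode the machinery of cell division, from the kinases that start mitosis to the motors, kinetochores and ring proteins that divide the chromosomes and the cell. They were taken by symbol from the 27754 genes counted in T47D cells, and all 60 were present and deep enough to test, with at least 259 counts in every library. T47D cells are an established line from a human breast carcinoma of the luminal, hormone receptor-positive type. RNA sequencing set 3 normoxia libraries (20% O2) against 3 hypoxia libraries (48 h), with replicates numbered 1 to 3 in each condition. The labels give 0.5% O2 for hypoxia, while the text of the study gives another oxygen level for this experiment. No genetic change or drug is named for either group, and both were grown as adherent cultures in RPMI with 10% serum.

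Cells enter mitosis when CDK1, bound to cyclin A or cyclin B, is released from inhibition by CDC25 phosphatases. Polo and aurora kinases then build the spindle, kinetochores join its microtubules to the centromeres, and a checkpoint holds the anaphase-promoting complex (APC/C) until every chromosome is attached. Most of these genes are transcribed in waves that peak in G2 and mitosis, so that their mRNA is low in cells that do not divide. Their promoters are known for CCAAT boxes, which bind NF-Y, and for the cell cycle genes homology region (CHR), which binds the MuvB core of the DREAM complex and of its activating forms with B-MYB and FOXM1.

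Short promoter stretches are shown first because most of the listed genes with a promoter sequence at hand carried the letters of a CHR near their start. RefSeq windows of 300 bases (250 before and 50 after an annotated start, GRCh38.p14) were at hand for 51 of the 60 genes, in 65 windows that can overlap. Each line gives 30 bases, 5′ to 3′ on the strand of the gene, with the CHR letters TTTGAA in capitals. The 4 genes at the top had the lowest log2 fold changes among those with TTTGAA on their own strand in the 100 bases before the start, and the 4 below them had the highest. Where a gene had several such matches the one nearest to the start is shown.
PLK1, chr16:23678848-23678877, + strand: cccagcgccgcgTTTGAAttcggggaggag
PRC1, chr15:90994538-90994567, - strand: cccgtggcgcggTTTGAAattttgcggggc
CDC20, chr1:43358904-43358933, + strand: cgacggttggatTTTGAAggagccaatagg
KIF23, chr15:69414282-69414311, + strand: ctgattggcccgTTTGAAatgcgccaggcg
MKI67, chr10:128126435-128126464, - strand: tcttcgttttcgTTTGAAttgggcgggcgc
CDC25C, chr5:138331817-138331846, - strand: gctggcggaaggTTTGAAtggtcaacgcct
CDK1, chr10:60778453-60778482, + strand: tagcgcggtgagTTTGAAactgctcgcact
ESPL1, chr12:53268256-53268285, + strand: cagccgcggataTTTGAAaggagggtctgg

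The letters TTTGAA, read on both strands, were in the windows of 36 of 51 listed genes (70.6%), against 18.2% of the 27305 genes with a window. CCAAT, on both strands, was found for 40 of 51 (78.4%, against 39.7% of all genes), and 25 of 51 (49.0%, against 12.9%) had at least 2 CCAAT boxes in their windows. Both motifs stood in the same window for 28 of 51 genes (54.9%, against 7.26%). E2F-like letters (TTTGGCGC, TTTCCCGC, TTTGGCGG or TTTCCCGG, on both strands) were rarer, in 5 of 51 (9.80%, against 5.21%). TTTGAA or TTTAAA was found for 43 of 51 genes (84.3%, against 27.9%). Matches of CCAAT and TTTGAA shared bases in 2 of the 65 windows, and no E2F-like match shared bases with either. A match is a run of letters and not a measured binding site.

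**Figure D1:**
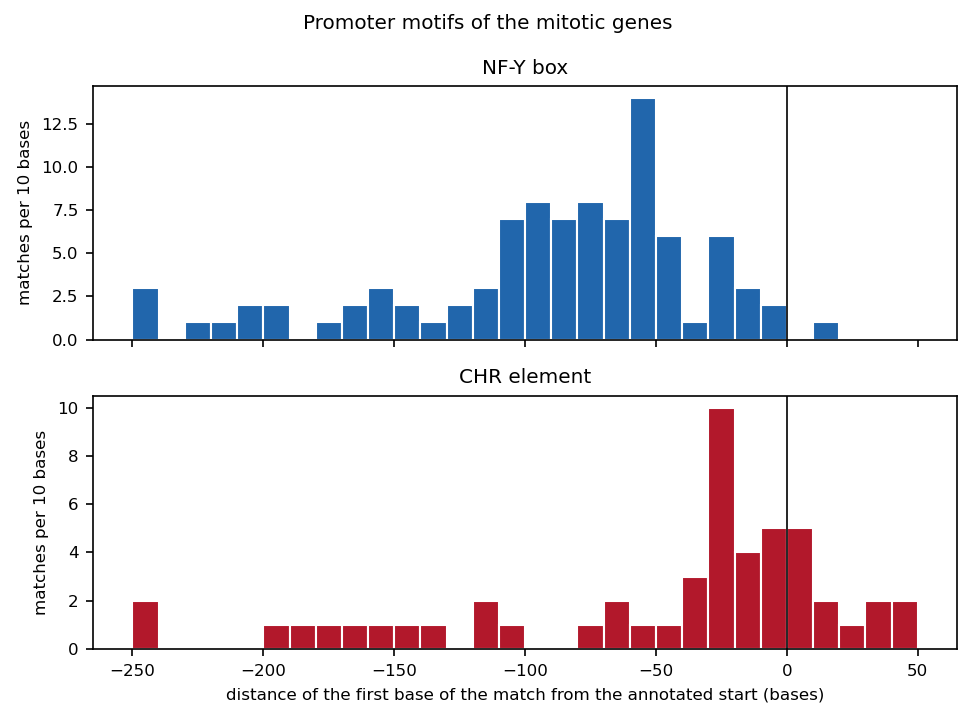
Number of motif matches per 10 bases (y axis) by the distance of the first base of the match from the annotated start (x axis, bases, with the start at 0) in the 65 promoter windows of 51 mitotic genes, for the CCAAT letters bound by NF-Y (top) and the CHR letters TTTGAA (bottom), both strands. The 93 CCAAT matches had a median position of -78 and the 51 TTTGAA matches of -28, so that the CHR lay nearer to the start. A site that lies in overlapping windows of a gene was counted once in each window.

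The most strongly reduced cyclin and phosphatase differed from this layout. The window of CCNB1 held no TTTGAA and had CCAAT boxes at -87 and -55. CDC25A, which acts at the entry into S phase as well as into mitosis, also had no TTTGAA. It had CCAAT in the reverse direction together with an E2F-like match at -44. Matches of TTTAAA are not given for either gene. Their windows are shown for that contrast, with CCAAT (or ATTGG on the reverse strand) or the E2F-like letters in capitals.
CCNB1, chr5:69167051-69167080, + strand: gaccggcagccgCCAATgggaagggagtga
CCNB1, chr5:69167083-69167112, + strand: gccacgaacaggCCAATaaggagggagcag
CDC25A, chr3:48188458-48188487, - strand: agttgcttactgATTGGtggattccgtttg
CDC25A, chr3:48188444-48188473, - strand: tggtggattccgTTTGGCGCcaactaggaa

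Among the 36 genes with TTTGAA the median log2 fold change in hypoxia was -0.71, and among the 15 with a window but without these letters it was -0.92. The ranges overlapped, from -1.20 to -0.27 and from -1.73 to -0.40. The genes with a window and the lowest log2 fold changes, CDC25A, CCNB1, NCAPH and BUB1, were all without TTTGAA. No window was at hand for AURKA, BIRC5, BUB3, TTK, UBE2C, CENPH, CENPM, TPX2 and FOXM1.

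The libraries held between 32989104 and 40943424 counts in normoxia, and 38580858, 34640756 and 89883409 counts in hypoxia replicates 1, 2 and 3. Levels are given in CPM, counts scaled to a common library size after TMM normalization, and values per library are always given in the order of replicates 1, 2 and 3. At these depths 3 counts, the limit that a count of 0 allows, corresponded to at most 0.0969 CPM, which covers counting error only. The study describes its data as independent experiments, while the labels name no separate cultures, and the p-values measure the spread between these libraries. All 11 luminal markers listed for T47D were detected, and their summed level was 15613 to 19559 CPM in normoxia and 11201 to 14265 CPM in hypoxia, with 5 of them lower (the estrogen and progesterone receptor genes ESR1 and PGR, and GATA3, FOXA1 and XBP1) and TFF1, at under 2 CPM, higher. Of 14 basal-like or mesenchymal markers, KRT5, KRT14, ZEB1, COL1A2 and COL3A1 stayed under 0.5 CPM, AXL, FN1 and S100A4 were higher in hypoxia, and the summed level of the 14 was 207 to 224 CPM in normoxia and 322 to 335 CPM in hypoxia. CD44, at 42.0 to 106 CPM, and COL1A1, at 76.9 to 99.1 CPM, were not called by edgeR's quasi-likelihood test (adjusted p = 0.124 and 0.6155). With the replicate number as a block CD44 was higher (adjusted p = 1.10e-04). VIM was at 12.8 and 10.95 CPM in replicate 3 of normoxia and hypoxia and under 1 CPM in the other 4 libraries. CAV1, SPARC and MSN were also highest in the libraries numbered 3, at 0.831 to 2.17 CPM, and at most 0.547 CPM in the other 4. Of the 4 leukocyte markers, PTPRC, CD3E and LYZ stayed under 0.2 CPM and CD68 was higher in hypoxia. VEGFA, a target of the hypoxia-inducible factors, was at 36.7, 46.5 and 34.2 CPM in normoxia and 813, 834 and 764 CPM in hypoxia, and CA9 at 0.937, 0.699 and 0.194 and 21.1, 21.4 and 31.5 CPM, with every hypoxia library above every normoxia library for both.

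The mitotic genes fell together in hypoxia. The 60 fitted log2 fold changes (hypoxia over normoxia) were all below 0, with a median of -0.74, which is a level 1.67-fold lower, and a range from -1.73 for CDC25A to -0.19 for BUB3. By edgeR's quasi-likelihood test, 53 of the 60 were lower at an adjusted p under 0.05, where 29.1% of the 15657 tested genes were lower. None was higher, where 30.4% of tested genes were. At an unadjusted p under 0.05, 56 of the 60 were lower and 0 higher, and DESeq2 called 0 of them higher. Shares of all tested genes are not given for these last counts, which describe the 60 genes only. The median over all tested genes was 0.028. The summed level of the 60 genes was 11483, 10973 and 11420 CPM in normoxia and 6122, 5702 and 8419 CPM in hypoxia, so the hypoxia libraries lay below all normoxia libraries and replicate 3 was the highest of them. In bulk RNA, fewer dividing cells and less of these mRNAs per dividing cell cannot be told apart.

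Of the 60 genes, 14 had a log2 fold change of -1 or lower and passed the test, against 4.91% of all tested genes. Every hypoxia library was below every normoxia library for 52 of the 60, against 32.4% of tested genes. None of the 60 had every hypoxia library above every normoxia library, which 34.9% of tested genes had. The 8 genes whose conditions overlapped were CDK1, CDC25C, ESPL1, CENPK, SPC24, NUSAP1, NCAPD2 and MYBL2, in each of which hypoxia replicate 3 reached into the range of normoxia. Genes with higher levels in normoxia fell more often in these libraries. The Spearman correlation between the normoxia level and the log2 fold change was -0.51 across the 15657 tested genes, as a description. The normoxia level is also the denominator of the fold change, which can by itself pull such a correlation below 0. Among the 8626 genes with a normoxia mean within the range of the 60 genes (17.3 to 1071 CPM), 44.7% were lower and the median log2 fold change was -0.21. Within the 60 genes the Spearman correlation of the log2 fold change was -0.04 with the normoxia level and 0.082 with the exon length.

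With the replicate number as a block, 59 of 60 genes were lower (35.2% of all tested genes), all but NUSAP1. Upper-quartile scaling, which raised the median of all genes by 0.157, left all 60 log2 fold changes below 0 and 47 of them past the test, while 38.1% of all genes were then higher and 21.0% lower. Without both libraries numbered 3, all 60 genes were lower (34.8% of tested genes), with a median log2 fold change of -0.97. Without both libraries numbered 1, 29 of 60 were lower (13.9% of tested genes).

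Replicate 3 showed the smaller fall. The median log2 ratio of the 60 genes within the pairs of libraries numbered 1, 2 and 3 was -0.93, -1.01 and -0.45, while the median of all tested genes was 0.028, 0.0081 and 0.0385. The ratio was nearest to 0, or above it, in the pair numbered 3 for 59 of 60 genes, and CDC25A was the exception. The pair numbered 3 had the highest ratio for 7013 of the 15657 tested genes and for 2023 of the 4551 genes called lower. It also had the highest ratio for 79 of the 99 other mitotic genes and 29 of the 33 replication genes described below. Over all genes called lower the median ratio was -0.618, -0.621 and -0.590 in the pairs numbered 1, 2 and 3. Hypoxia replicate 3 was the highest hypoxia library for 58 of 60 genes (96.7%), all but BUB3 and CENPE, where it was the highest for 64.1% of all genes that were lower in hypoxia and for 44.4% of all tested genes. This library was also the deepest of the 6, at 89883409 counts. It carried VIM at 10.95 CPM, a trait shared with normoxia replicate 3, where VIM reached 12.8 CPM. The part of depth or of VIM in the smaller fall of replicate 3 was not tested. The ratio was below 0 in all 3 pairs for 57 of 60 genes (40.1% of tested genes), and in the pair numbered 3 it was 0.0021 for CDK1, 0.016 for CDC25C and 0.18 for NUSAP1.

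**Figure D2:**
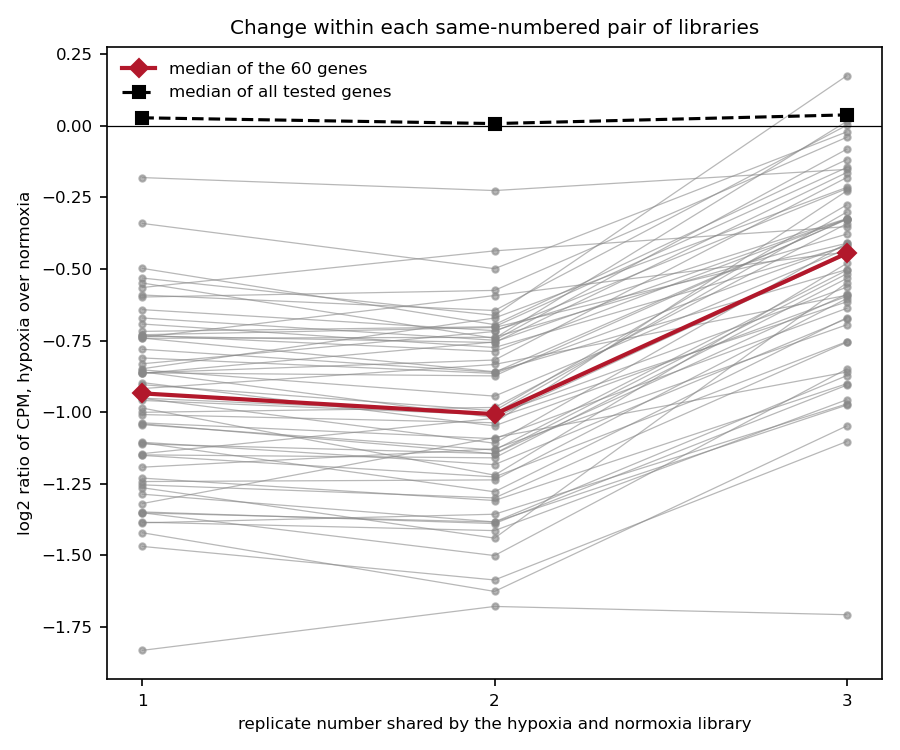
Log2 ratio of CPM, hypoxia over normoxia (y axis), within the pairs of libraries with the same replicate number (x axis), with a grey line for each of the 60 mitotic genes, red diamonds for their median and black squares for the median of all tested genes. The red median is -0.93, -1.01 and -0.45 while the black one stays between 0.0081 and 0.0385, and 3 genes lie above 0 in the pair numbered 3.

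The cyclins, CDK1 and the CDC25 phosphatases, which start mitosis, had 6 of 7 genes lower and a median log2 fold change of -0.75. CDC25A (chromosome 3, 48198668 to 48229801 in GRCh37), the phosphatase that removes inhibitory phosphates from CDK2 and CDK1, was at 54.5, 41.5 and 67.6 CPM in normoxia and 15.3, 13.0 and 20.7 CPM in hypoxia. Every hypoxia library was below the lowest normoxia library, and the gene had a log2 fold change of -1.73 (SE 0.22, quasi-likelihood adjusted p = 4.61e-04). CCNB1 (chromosome 5, 68462837 to 68474070), which encodes cyclin B1, the main partner of CDK1 in mitosis, was at 355, 330.0 and 394 CPM in normoxia and 133, 107 and 191 CPM in hypoxia. These groups were also apart, with a log2 fold change of -1.33 (SE 0.20, quasi-likelihood adjusted p = 9.11e-04). Cyclin A2 (CCNA2), cyclin B2 (CCNB2) and CDC25B fell by less, with log2 fold changes of -0.92, -0.75 and -0.67.

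CDK1 (chromosome 10, 62538089 to 62554611), the kinase itself and the most abundant of the 7 in CPM over both conditions (CCNB1 was higher in normoxia), was at 311, 303 and 289.9 CPM in normoxia and 206, 194 and 290.3 CPM in hypoxia. Hypoxia replicate 3 was thus level with normoxia replicate 3, and the other hypoxia libraries lay below all of normoxia. The log2 fold change of CDK1 was -0.39 (SE 0.15), and its quasi-likelihood adjusted p of 0.0507 narrowly missed the threshold (0.0129 with the replicate block). CDC25C, the phosphatase most tied to the G2 to M step, was likewise level in replicate 3, with 27.8, 29.1 and 24.1 CPM in normoxia and 19.0, 17.4 and 24.4 CPM in hypoxia, and it had a log2 fold change of -0.41 (SE 0.14, quasi-likelihood adjusted p = 0.0369). With upper-quartile scaling CDC25C did not pass (log2 fold change -0.26, adjusted p = 0.148). The exons of CDC25C share 11.4% of their bases with FAM53C on the other strand, and those of CCNA2 share 8.86% with EXOSC9, and the strand setting on which such counts depend is not given in the sources used here.

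All 3 polo and aurora A kinase genes fell, with a median log2 fold change of -1.20. AURKA (chromosome 20, 54944445 to 54967393), the kinase that matures centrosomes and builds the spindle poles, was at 209, 198 and 232 CPM in normoxia and 75.6, 66.0 and 108 CPM in hypoxia, and had a log2 fold change of -1.35 (SE 0.18, quasi-likelihood adjusted p = 5.17e-04). PLK1 (chromosome 16, 23690093 to 23701688), which acts at centrosomes, kinetochores and the midbody, was at 226, 206 and 277 CPM in normoxia and 88.4, 78.8 and 141 CPM in hypoxia. Neither gene overlapped between the conditions, and PLK1 had a log2 fold change of -1.20 (SE 0.22, quasi-likelihood adjusted p = 0.00242). PLK4, the kinase that starts the copying of centrioles, was lower in level and changed less, from 40.7, 38.5 and 43.8 CPM to 24.4, 25.5 and 32.3 CPM, with a log2 fold change of -0.58 (SE 0.12, quasi-likelihood adjusted p = 0.00457).

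The 4 genes of the chromosomal passenger complex, which corrects wrong attachments and later directs cytokinesis, were all lower, with log2 fold changes between -0.94 and -0.69. BIRC5 (chromosome 17, 76210277 to 76221716), which encodes survivin, was at 157, 152 and 198 CPM in normoxia and 73.2, 66.8 and 124 CPM in hypoxia, with a log2 fold change of -0.94 (SE 0.23, quasi-likelihood adjusted p = 0.00920). AURKB, the kinase of the complex, was at 66.0, 59.5 and 67.7 CPM and 32.8, 29.0 and 57.9 CPM, where replicate 3 of hypoxia came close to the lowest normoxia library without reaching it. AURKB had a log2 fold change of -0.69 (SE 0.24, quasi-likelihood adjusted p = 0.0371), and did not pass with upper-quartile scaling (adjusted p = 0.0695). The scaffold INCENP and borealin (CDCA8) had log2 fold changes of -0.81 and -0.91.

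**Figure D3:**
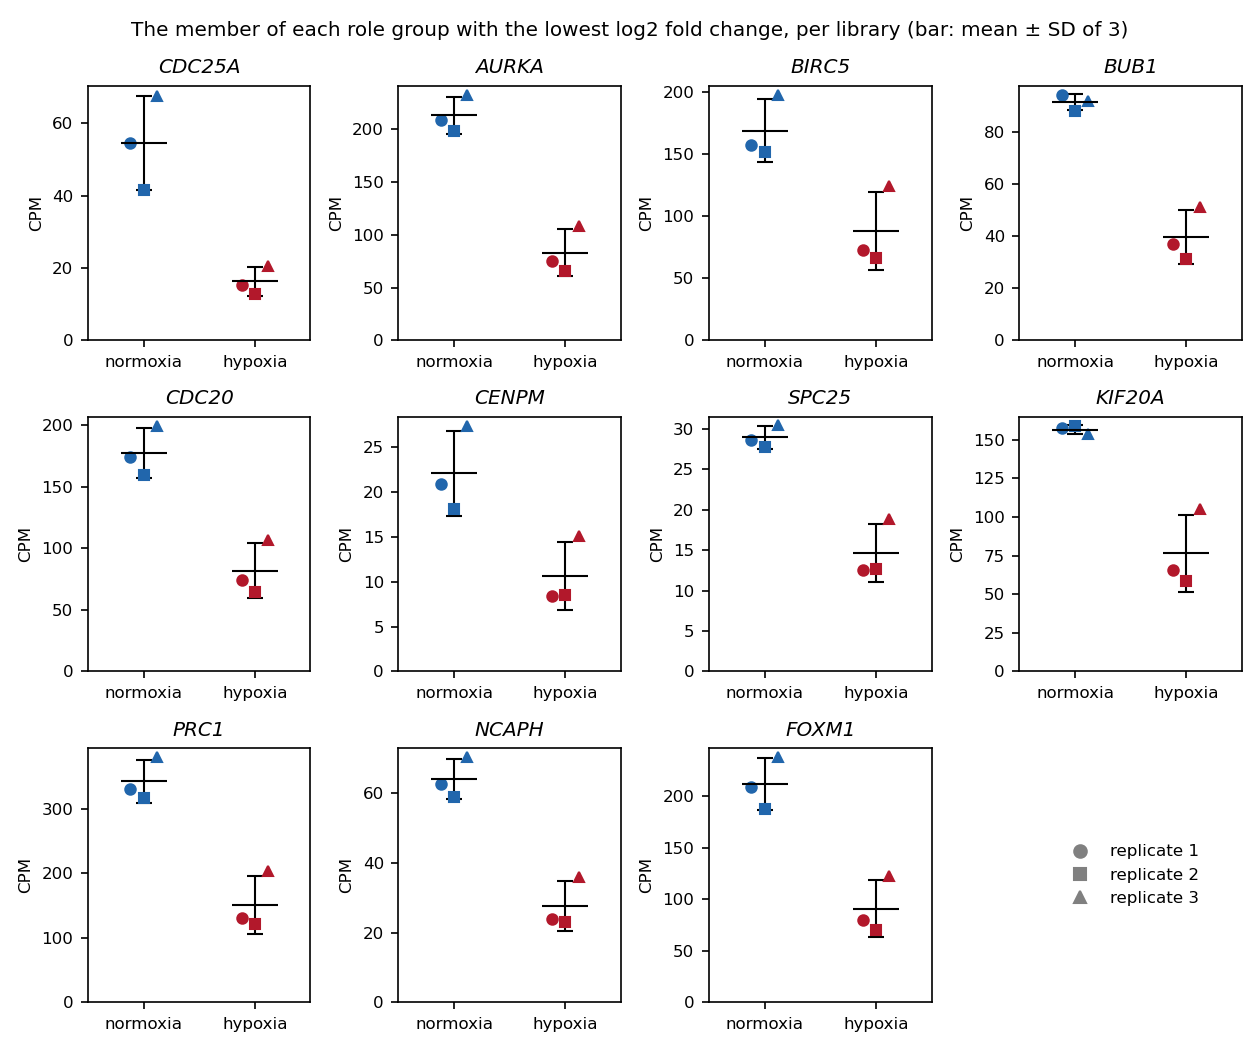
Level in CPM (y axis, from 0) in each normoxia (blue) and hypoxia (red) library for the gene of each role group with the lowest log2 fold change, with symbols for replicates 1, 2 and 3 and black bars for the mean ± SD (n = 3). In all 11 genes the 3 hypoxia libraries lie below the 3 normoxia libraries, and replicate 3 is the highest hypoxia library.

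The 5 genes of the spindle assembly checkpoint, which delays anaphase until all kinetochores are attached, were all lower, by very different amounts. BUB1 (chromosome 2, 111395275 to 111435684), a checkpoint kinase that docks at kinetochores, was at 94.1, 88.1 and 91.9 CPM in normoxia and 36.9, 31.1 and 51.0 CPM in hypoxia, and had a log2 fold change of -1.20 (SE 0.17, quasi-likelihood adjusted p = 7.03e-04). BUB3 (chromosome 10, 124913760 to 124924886), the small adaptor that carries BUB1 and BUBR1 to the kinetochore, was at 176, 174 and 167 CPM in normoxia and 155, 149 and 151 CPM in hypoxia. Its groups did not overlap, but it moved least of all 60 genes, with a log2 fold change of -0.19 (SE 0.066, quasi-likelihood adjusted p = 0.0406). The call for BUB3 was lost with upper-quartile scaling (log2 fold change -0.029, adjusted p = 0.745) and in edgeR's exact test (adjusted p = 0.0667). BUBR1 (BUB1B), the kinase TTK and MAD2 (MAD2L1) had log2 fold changes of -0.89, -0.71 and -0.67.

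Of the 4 genes that trigger anaphase, 3 fell. CDC20 (chromosome 1, 43824626 to 43828873), the activator of the APC/C that the checkpoint restrains, was at 174, 159 and 199 CPM in normoxia and 74.2, 64.4 and 107 CPM in hypoxia, with a log2 fold change of -1.12 (SE 0.18, quasi-likelihood adjusted p = 0.00147). UBE2C, the ubiquitin-conjugating enzyme of the APC/C, was at 209.7, 209 and 203 CPM and 108, 96.8 and 153 CPM, with a log2 fold change of -0.79 (SE 0.16, quasi-likelihood adjusted p = 0.00344). Securin (PTTG1), which holds separase back until anaphase, had a log2 fold change of -1.05, and its near-copy PTTG2 had at most 2 counts in any library. Separase (ESPL1), the protease that cuts cohesin, was at 129, 116 and 139.6 CPM in normoxia and 85.0, 78.2 and 136 CPM in hypoxia. Its hypoxia replicate 3 lay within the normoxia range, and it had a log2 fold change of -0.36 (SE 0.20, quasi-likelihood adjusted p = 0.149), with an adjusted p of 0.00920 with the replicate block.

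Among the 8 centromere proteins, which mark the centromere and build the kinetochore on it, 7 fell, with a median log2 fold change of -0.85. CENPF (chromosome 1, 214776532 to 214837914), a large protein of the outer kinetochore, was at 693, 679 and 551 CPM in normoxia and 336, 309.6 and 388 CPM in hypoxia, with a log2 fold change of -0.89 (SE 0.12, quasi-likelihood adjusted p = 6.11e-04). The kinetochore motor CENPE had a log2 fold change of -0.85. CENPM, a subunit of the constitutive centromere network, had low levels of 20.9, 18.1 and 27.4 CPM and 8.37, 8.50 and 15.1 CPM, with a log2 fold change of -1.04 (SE 0.26, quasi-likelihood adjusted p = 0.00923). CENPA, the histone H3 variant that defines the centromere, had a log2 fold change of -0.84, and CENPI, CENPN and CENPH had -0.99, -0.77 and -0.54. CENPK, a partner of CENPH, was at 51.6, 50.9 and 58.3 CPM in normoxia and 36.5, 31.4 and 53.7 CPM in hypoxia, which overlap, and its log2 fold change of -0.40 passed with the replicate block and not without it (adjusted p = 0.00577 and 0.0982).

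The NDC80 complex, whose 4 subunits together join the kinetochore to the microtubule, had 3 genes lower. SPC25 went from 28.7, 27.7 and 30.5 CPM in normoxia to 12.6, 12.7 and 18.8 CPM in hypoxia, with a log2 fold change of -0.97 (SE 0.16, quasi-likelihood adjusted p = 0.00166). NUF2, the most abundant of the 4 in CPM, was at 75.5, 73.2 and 67.6 CPM and 45.9, 45.0 and 61.2 CPM, with a log2 fold change of -0.51 (SE 0.13, quasi-likelihood adjusted p = 0.0103). The groups of both genes were apart, while SPC24, the partner of SPC25, was at 35.1, 32.1 and 39.1 CPM and 19.7, 19.5 and 33.6 CPM and overlapped through replicate 3. The log2 fold change was -0.54 for SPC24 (adjusted p = 0.0572, and 0.00229 with the replicate block), and -0.71 for NDC80 itself (adjusted p = 0.00947). Within the pairs numbered 1, 2 and 3 the log2 ratio of SPC25 was -1.19, -1.13 and -0.69 and that of SPC24 was -0.83, -0.72 and -0.22, so SPC25 had the lower ratio in each, although the difference itself was not tested.

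All 8 kinesins, the motors of the spindle, were lower, with log2 fold changes between -1.03 and -0.51. KIF20A (chromosome 5, 137514417 to 137523404), which carries the passenger complex to the central spindle, was at 158, 159 and 154 CPM in normoxia and 65.6, 58.5 and 105 CPM in hypoxia. Its normoxia libraries lay within a few CPM of each other while hypoxia replicate 3 stood above the other hypoxia libraries, and it had a log2 fold change of -1.03 (SE 0.20, quasi-likelihood adjusted p = 0.00307). KIF23, which with RACGAP1 forms the centralspindlin complex, and KIF14, a motor of late cytokinesis, followed with -1.01 and -0.90. KIF11 (chromosome 10, 94352825 to 94415152), the motor that pushes the spindle poles apart, was the most abundant at 299.6, 289 and 244 CPM and 165, 158 and 195 CPM, with a log2 fold change of -0.69 (SE 0.11, quasi-likelihood adjusted p = 0.00142). KIF2C, which depolymerizes microtubules at the centromere, was at 117, 113 and 125 CPM and 70.5, 66.8 and 112 CPM, with a log2 fold change of -0.51 (SE 0.19, quasi-likelihood adjusted p = 0.0447), and did not pass with upper-quartile scaling (adjusted p = 0.106).

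The remaining kinesins, KIF18A, KIF4A and KIFC1, had log2 fold changes of -0.62, -0.59 and -0.58, and KIFC1 did not pass with upper-quartile scaling (adjusted p = 0.0557). The near-identical copy KIF4B had 5 to 15 counts per library, and KIF4A 1819 to 6786. KIFC1 is counted on chromosome 6 and on 2 alternative sequences of that chromosome, and how reads that match all of them were treated is not given in the sources used here.

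Of the 8 spindle and cytokinesis proteins, 7 fell. PRC1 (chromosome 15, 91509268 to 91537881), which bundles the microtubules of the central spindle, was at 332, 317 and 381 CPM in normoxia and 130.2, 121 and 203 CPM in hypoxia, with a log2 fold change of -1.18 (SE 0.19, quasi-likelihood adjusted p = 0.00141). ECT2, the exchange factor that activates RhoA for the contractile ring, had a log2 fold change of -1.17. TPX2, which activates aurora A and nucleates spindle microtubules, was the most abundant of the 8 at 472, 439 and 489 CPM and 282, 263 and 376 CPM, with a log2 fold change of -0.60 (SE 0.13, quasi-likelihood adjusted p = 0.00595). The log2 fold changes of the spindle proteins DLGAP5, ASPM and HMMR and of the ring scaffold ANLN lay between -0.99 and -0.70. NUSAP1 (chromosome 15, 41624892 to 41673248), which stabilizes spindle microtubules near chromatin, was at 326, 336 and 280.3 CPM in normoxia and 225, 213 and 316 CPM in hypoxia. Hypoxia replicate 3 was above normoxia replicate 3, the groups overlapped, and NUSAP1 was the only gene of the 60 that passed neither without nor with the replicate block (log2 fold change -0.32, adjusted p = 0.108 and 0.0594). The exons of PRC1 share 10.6% of their bases with the antisense gene PRC1-AS1, and those of HMMR share 9.70% with HMMR-AS1.

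Condensin I and topoisomerase II alpha, which compact and untangle chromosomes, had 5 of 6 genes lower and the median log2 fold change nearest to 0 of the 11 role groups, at -0.55. TOP2A (chromosome 17, 38544773 to 38574202), the decatenating enzyme, had the highest level of all 60 genes in CPM and per kilobase of exon, at 1101, 1124 and 988 CPM in normoxia and 692, 669 and 933 CPM in hypoxia. Its groups were just apart, with a log2 fold change of -0.49 (SE 0.14, quasi-likelihood adjusted p = 0.0158), and did not pass with upper-quartile scaling (adjusted p = 0.0592). Within condensin I, the kleisin NCAPH was at 62.9, 59.1 and 70.6 CPM and 24.0, 23.1 and 36.0 CPM, and had a log2 fold change of -1.21 (SE 0.17, quasi-likelihood adjusted p = 8.24e-04). The HEAT-repeat subunit NCAPD2 was at 114, 122 and 123 CPM and 90.2, 86.7 and 121 CPM and overlapped between conditions. Its log2 fold change was -0.27 (adjusted p = 0.108, and 0.0182 with the replicate block). In the pairs numbered 1, 2 and 3, the log2 ratio of NCAPH was -1.39, -1.36 and -0.97 and that of NCAPD2 was -0.34, -0.50 and -0.021, with no test of the difference. The ATPases SMC2 and SMC4, which condensin II also uses, had -0.45 and -0.61, and NCAPG, which shares 34.4% of its exon bases with LCORL on the other strand, had -0.63.

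The transcription factors that drive many of these genes, and the proliferation marker Ki-67, were also lower or near the threshold. FOXM1 (chromosome 12, 2966847 to 2986321), the forkhead factor of the G2 and M wave, was at 209, 188 and 238 CPM in normoxia and 80.0, 70.6 and 123 CPM in hypoxia, with a log2 fold change of -1.21 (SE 0.20, quasi-likelihood adjusted p = 0.00150), and 12.3% of its exon bases overlap ITFG2 and LOC100507424 on the other strand. MYBL2, which encodes B-MYB, was at 311, 262 and 359 CPM in normoxia and 171, 156 and 287 CPM in hypoxia. Replicate 3 of hypoxia again lay within the normoxia range, and MYBL2 had a log2 fold change of -0.60 (SE 0.23, quasi-likelihood adjusted p = 0.0512), with an adjusted p of 4.97e-04 with the replicate block. MKI67 (chromosome 10, 129894925 to 129924468), which encodes Ki-67, was at 413, 362 and 368 CPM and 229.6, 227 and 317 CPM, with a log2 fold change of -0.56 (SE 0.14, quasi-likelihood adjusted p = 0.00895).

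Per kilobase of exon, which allows levels to be compared between genes, the normoxia means ranged from 4.40 CPM per kilobase for CENPI to 186 for TOP2A, with a median of 42.3. CCNB1 and UBE2C were the next highest in normoxia, at 166 and 165 CPM per kilobase, which differ by less than the spread between libraries. In hypoxia the means of CCNB1 and UBE2C were 66.2 and 94.8 CPM per kilobase.

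Other genes of mitosis, taken from a list of 99 that does not include the 60, were also mostly lower. By edgeR's quasi-likelihood test, 74 of the 99 were lower and 2 higher (29.1% and 30.4% of all tested genes), with a median log2 fold change of -0.58. The largest falls were those of TUBG1, the gamma-tubulin that nucleates microtubules, from 258, 226 and 269.5 CPM to 89.1, 77.9 and 148 CPM (log2 fold change -1.26), SKA2 (-1.22) and KNSTRN (-1.19), which link kinetochores to microtubules. The genes that rose were ANAPC16, an APC/C subunit, from 55.1, 58.2 and 55.2 CPM to 79.0, 76.8 and 79.6 CPM, with a log2 fold change of 0.48 (SE 0.071, quasi-likelihood adjusted p = 8.82e-04), and STAG2, a cohesin subunit, from 94.3, 91.2 and 77.2 CPM to 124, 130.2 and 99.3 CPM, with a log2 fold change of 0.43 (SE 0.12, quasi-likelihood adjusted p = 0.0182). The called fall nearest to 0 was that of CKAP2, a spindle protein, at -0.34. By role, the APC/C core and its cofactors had 12 of 17 lower and a median of -0.45, cohesin and its protectors 10 of 12 and -0.49, the partners of the checkpoint 7 of 7 and -0.74, and all 3 genes particular to condensin II were lower.

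Genes of DNA replication, which peak earlier in the cell cycle, fell in the same libraries. Of 33 listed genes, 30 were lower and 0 higher, where 29.1% and 30.4% of all tested genes were. The log2 fold change was below 0 for all 33 genes, where it was for 7584 of the 15657 tested. The median of the 33 was -0.83. MCM5, MCM6 and PCNA had the largest falls, at -1.67, -1.57 and -1.57, and RFC1, LIG1 and RRM2 the smallest that passed, at -0.20, -0.40 and -0.49. Hypoxia replicate 3 was the highest hypoxia library for 32 of the 33. In their promoter windows, TTTGAA was found for 1 of 29 replication genes (3.45%), the E2F-like letters for 17 (58.6%) and CCAAT for 18 (62.1%). Of 85 other mitotic genes with a window, 34 had TTTGAA (40.0%), 18 the E2F-like letters (21.2%) and 48 CCAAT (56.5%), against 70.6%, 9.80% and 78.4% of the 51 listed mitotic genes. No test between the lists was made.

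**Figure D4:**
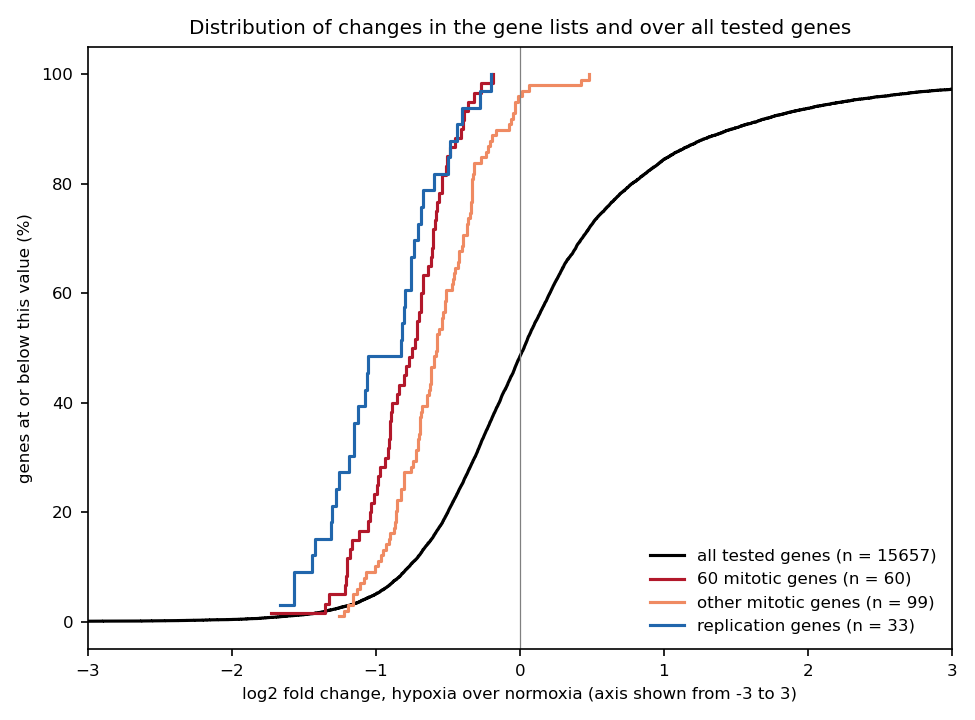
Share of genes (y axis, %) at or below each log2 fold change, hypoxia over normoxia (x axis, shown from -3 to 3), for all tested genes (black), the 60 mitotic genes (red), 99 other mitotic genes (orange) and 33 replication genes (blue). The red curve reaches 100% before 0, with a median of -0.74, and lies between the orange curve (-0.58) and the blue curve (-0.83) at their medians, while the black curve has a median of 0.028.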

How the data were processed

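RNA sequencing of T47D cells gave 3 normoxia and 3 hypoxia libraries. The authors prepared stranded mRNA libraries, trimmed the reads with Skewer, used STAR 2.5.2a to align them to GRCh37 (hg19) and deposited the counts of featureCounts 1.5.1 per RefSeq gene, 1 file per library and not normalized. FastQC 0.11.5 is also named in the submitters' processing notes. How strand and multiply mapping reads were handled is not given in the sources used here. Libraries held 32989104 to 89883409 counts.

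The software was R 4.3.3 with edgeR 4.0.16 and DESeq2 1.42.0 for the counts, and Python 3.11.15 with matplotlib 3.10.9 for the figures. Of 27754 genes, the 15657 kept by filterByExpr (minimum count 10, minimum total 15) entered edgeR's quasi-likelihood test with TMM normalization and a model of condition alone, with p-values adjusted by Benjamini-Hochberg at 0.05 over all of them. Standard errors were derived from the F statistic. EdgeR's exact test, named in the study's methods, served as an alternative. Gene lists were described by counts and medians without a set test. The members and lists were chosen with earlier results of these data known. Named members are, in each role group, those with the highest CPM and the largest and smallest log2 fold change, and over all 60 the 5 with the lowest and the 5 with the highest log2 fold change. Values per library of CDC25C, SPC24 and MYBL2, whose conditions overlapped, were added after they were seen. Of each other list, up to 3 called genes at either end are named.

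Libraries with the same number deviated together from their condition means, with correlations across genes of 0.338, 0.422 and 0.575 for numbers 1, 2 and 3. All were over 0.1, so the numbers were taken as pairs for the pair ratios and the replicate block. The main test left the pairing out. Libraries numbered 1 and 2 also correlated across numbers (0.277 and 0.243), while replicate 3 correlated negatively with both (-0.466 to -0.376), so the check mainly set replicate 3 apart. The study's methods call hypoxia and normoxia samples paired, and the labels name no pairing beyond the numbers. On simulated counts for these libraries, 88.9% of genes changed by 1 on the log2 scale and 100% of those changed by 2 were recovered, and 7.50% of calls were of unchanged genes. The simulation had 196 changed genes among 15479 tested and no effect of the replicate number. These data differ in both, so the rates hold for the simulated setting only. Promoter sequences and starts are those of RefSeq for GRCh38.p14, while all gene coordinates are of GRCh37. Alternatives covered the test, the scaling, the filter, the replicate block and libraries left out.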

Additional observations from a re-analysis of the deposited data

How the results depend on the processing

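All 60 log2 fold changes stayed below 0 under each alternative, and 0 members were called higher under any of them. The count of lower members was 56 in DESeq2 and with RLE size factors, 55 in edgeR's exact test and with all genes of at least 1 count, and 49 with library size only. It was 47 with upper-quartile factors (21.0% of tested genes lower) and 59 with the replicate block (35.2%), beside 53 and 29.1% in the main fit. Where no share is given, a member count here does not separate the members from a shift over all genes. The block ended no call and added 6 of them, those of CDK1, ESPL1, CENPK, SPC24, NCAPD2 and MYBL2. With 1 library or 1 replicate number left out, the count of lower members ranged from 29 to 60, their median log2 fold change from -0.97 to -0.63, and over all tested genes the count of lower genes from 2191 to 5506 and of higher genes from 2648 to 5751. The lowest counts came without both libraries numbered 1 (13.9% of tested genes lower) and the highest without both numbered 3 (34.8%). The fits without a replicate number rest on 2 libraries per condition. Leaving out hypoxia replicate 3 alone gave 60 lower members, and leaving out hypoxia replicate 1 alone gave 44. BUB3 lost its call in 4 alternatives with all libraries (edgeR's exact test, all genes of at least 1 count, library size only and upper-quartile factors). Depth did not limit these genes, each with at least 259 counts per library, and their precision was set by the spread between libraries.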

Other observations

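Several inhibitors of the cyclin-dependent kinases were higher in hypoxia. Of 7 listed inhibitor genes, 4 were higher in hypoxia, 1 was lower and 2 did not pass (edgeR's quasi-likelihood test, where 30.4% of all tested genes were higher and 29.1% lower). CDKN1A, which encodes p21, was at 23.1, 25.8 and 21.5 CPM in normoxia replicates 1, 2 and 3 and 144, 129 and 168 CPM in hypoxia replicates 1, 2 and 3, with a log2 fold change of 2.65 (SE 0.12, quasi-likelihood adjusted p = 2.06e-05). CDKN1C, which encodes p57, rose from under 0.5 CPM to 2.10, 2.90 and 2.63 CPM, with a log2 fold change of 2.88 (SE 0.26, quasi-likelihood adjusted p = 1.24e-04). CDKN2B and CDKN1B, which encode p15 and p27, rose by 0.95 and 0.28 on the log2 scale. CDKN2C, which encodes p18, fell by 0.57 on the log2 scale (adjusted p = 0.0220). With upper-quartile scaling 5 of the 7 were higher and 0 lower (38.1% and 21.0% of all tested genes), so that CDKN2C was no longer called. The log2 fold change was 0.52 for CDKN2A (adjusted p = 0.0618, and 7.72e-04 with the replicate block) and -0.48 for CDKN2D (adjusted p = 0.0519, and 0.00615 with the replicate block).

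The genes of the DREAM complex and its MuvB core, the complex that binds the CHR, were lower in part. Of 11 genes, 6 were lower and 0 higher (6 and 1 with the replicate block), and the median log2 fold change was -0.27, where 29.1% of all tested genes were lower and their median was 0.028. With upper-quartile scaling 5 were lower and 3 higher (21.0% and 38.1% of all tested genes), with a median of -0.11. LIN54, the MuvB subunit that contacts the CHR, was at 33.5, 31.6 and 34.1 CPM in normoxia and 32.4, 31.2 and 33.8 CPM in hypoxia, with a log2 fold change of -0.027 (SE 0.079, quasi-likelihood adjusted p = 0.781), and is named outside the rule, after its values were seen. The largest falls were those of LIN52, a MuvB subunit, from 15.3, 15.5 and 20.4 CPM to 7.41, 6.94 and 10.1 CPM, with a log2 fold change of -1.05 (SE 0.18, quasi-likelihood adjusted p = 0.00193), of TFDP1, the dimer partner of E2F factors (-0.87), and of the pocket protein gene RBL1 (-0.84). LIN9, RBBP4 and E2F4 were the other genes that fell, at -0.56, -0.55 and -0.27.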
